A study of Gossypium hirsutum with 9 samples.

Results

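The rows described here are 4027 expressed loci of upland cotton whose IDs do not follow the Gohir gene naming, the ID scheme of nearly all other rows. They were chosen as all rows outside that naming with an FPKM (a read count divided by the length of the row and by a library-size term) of at least 1 in at least 3 of 9 libraries. They are 4027 of the 5594 loci outside the naming and of 50988 rows that met the same minimum, among 80970 rows in all. Their IDs in the files are a prefix word followed by a running number from 1 to 5594, so each is called here locus plus its number. The sources used here do not say how the loci were defined, where they lie or what their sequences are, and no locus has a name or a role.

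All libraries were made from ovules of the strain TM-1 of Gossypium hirsutum, cultured for 5 days on medium with glucose (Glc) at 50, 150 or 300 mM, with 3 RNA sequencing libraries for each concentration. The samples include no osmotic control, so that glucose as a sugar and the osmolarity of the medium cannot be told apart. Whether libraries of the same concentration are separate cultures is not stated, and the p-values thus cover only how these libraries vary, which may be technical. The tissue label could not be checked against marker genes, since the files pair no ID with a name.

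A gene annotation lists the transcripts known when it was made, and reads that map outside it can be assembled into further loci. Such loci are known to include noncoding RNAs, untranslated stretches of neighbouring genes, protein-coding genes that an annotation missed, and transcripts of mobile elements. In plants many of them are expressed at low levels and only in some tissues or conditions. Each cotton fibre is an outgrowth of an epidermal cell of the ovule, and cultured ovules take their sugar from the medium. To which of these classes any locus here belongs cannot be told from the files.

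The libraries held 17803705 to 19140279 recovered reads each, and these loci took 2.44% to 2.88% of them. In a locus of 1000 bases 1 read was worth an FPKM of 0.05 to 0.0545. Replicate 1 at 300 mM was closer to the 150 mM libraries than the other replicates at 300 mM were. Over the loci described here its log2(FPKM + 0.5) values had a Pearson r of 0.920 and 0.897 against the 300 mM replicates 2 and 3, and of 0.913, 0.899 and 0.914 against the 3 libraries at 150 mM. Replicates 2 and 3 at 300 mM had r from 0.886 to 0.893 against those libraries. Pairs of libraries from the same group gave r from 0.938 to 0.944 for 50 mM, 0.923 to 0.931 for 150 mM and 0.897 to 0.920 for 300 mM. These are descriptions across loci, which are not independent replicates.

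The loci were expressed at low levels compared with the Gohir rows. Their mean FPKM over the 9 libraries had a median of 2.50, with a lower quartile of 1.46 and an upper quartile of 4.75. The median of the 46961 Gohir rows tested was 8.33. A mean FPKM under 5 was found in 3075 loci (76.4%), against 33.3% of the Gohir rows. At the other end 329 loci had a mean FPKM of at least 10, 80 of at least 20 and 3 of at least 100, and the range ran from 0.480 to 532. The lengths recovered from the values of 3780 loci with at least 100 reads had a median of 1238.5 bases, with quartiles of 862 and 1973.5 and a range of 205 to 10646. Of these lengths 33.6% were divisible by 3, against 95.5% of the Gohir lengths, which were called coding lengths on that ground. FPKM values of the 2 kinds of row therefore rest on lengths of different kinds.

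**Figure D1:**
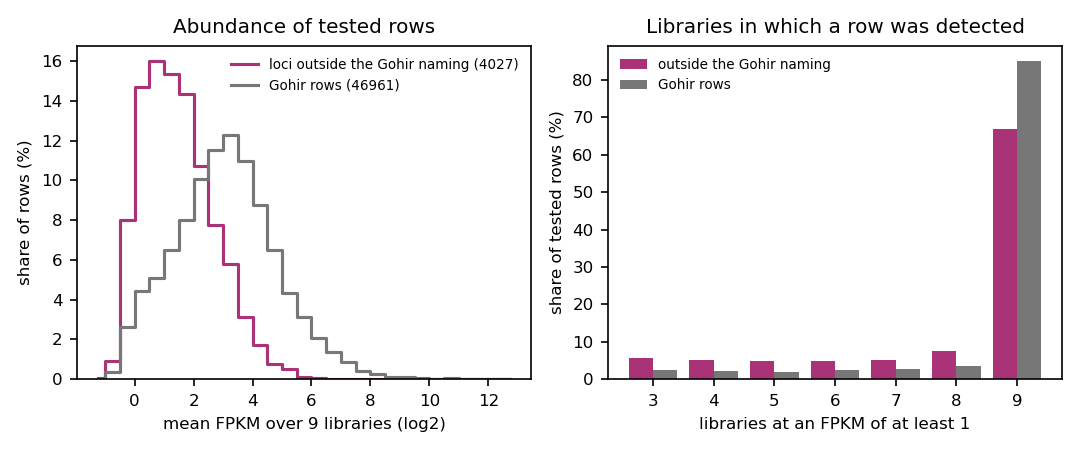
Left, the share of rows (%) by mean FPKM over 9 libraries (log2 scale) for the 4027 loci outside the Gohir naming and the 46961 Gohir rows tested. Right, the share of rows (%) by the number of libraries at an FPKM of at least 1, where 66.9% of the loci and 85.0% of the Gohir rows reach all 9.

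Most of the loci were detected in every library. An FPKM of at least 1 was reached in all 9 libraries by 2695 loci (66.9%), against 85.0% of the Gohir rows tested. The numbers at 8, 7, 6, 5, 4 and 3 libraries were 299, 210, 193, 196, 205 and 229. The median mean FPKM was 3.68 for loci reaching the minimum in 9 libraries, 1.63 at 8 libraries and 0.851 at 3 libraries. Reads above 0 were present in all 9 libraries for 3945 loci, and no locus was above 0 in fewer than 5. Per library 3486 to 3558 loci were at an FPKM of at least 1, and the ranges of the 3 concentrations overlapped.

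The minimum cut through a dense range of levels. The lowest third-highest FPKM inside the rule was 1.00 and the highest outside it was 0.9998, with 161 loci between 1 and 1.1 and 148 between 0.9 and 1. Of the 229 loci that met the rule in exactly 3 libraries, 56 did so in the 3 libraries of 1 concentration and 173 in libraries of several concentrations. Their mean FPKM was 0.480 to 2.12. The 264 loci that reached the minimum in 2 libraries only, just outside the rule, had a mean FPKM of 0.254 to 1.48. A further 398 loci reached it in 1 library and 905 in none, of which 111 were at 0 in every library.

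Few loci held a large share of the reads. The 10 most abundant took from 4.90% to 5.41% of all reads of these loci in the 50 mM libraries, from 7.61% to 8.44% in those at 150 mM and from 5.96% to 7.25% in those at 300 mM, ranges that did not overlap. Locus 2526, of 944 bases, was the most abundant and stood higher at each concentration. Its FPKM in replicates 1 to 3 was 159.6, 258 and 170.0 at 50 mM, 495, 401 and 594 at 150 mM and 1013, 961 and 739 at 300 mM. No value was shared between the groups, and the mean was 196 ± 54.1 with 50 mM, 497 ± 96.5 with 150 mM and 904 ± 146 with 300 mM glucose (SD, n = 3). The log2 change was 1.36 (standard error 0.222, adjusted p = 0.00205 by limma) from 50 to 150 mM and 2.22 (standard error 0.222, adjusted p = 0.000171 by limma) from 50 to 300 mM. From 150 to 300 mM it was 0.87 (standard error 0.222, adjusted p = 0.0512 by limma), which missed the threshold of 0.05. Every log2 change given here is a difference in mean log2(FPKM + 0.5), a scale that shrinks the changes of low loci.

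Locus 4042, of 2256 bases, was the second most abundant and fell sharply from 150 to 300 mM. Its FPKM was 209, 125 and 213 at 50 mM, 304, 333 and 284 at 150 mM and 78.8, 42.5 and 40.9 at 300 mM. The 3 libraries at 300 mM were below all other libraries, and replicate 1 was the highest of them. The log2 change from 150 to 300 mM was -2.56 (standard error 0.274, adjusted p = 0.00206 by limma), from 50 to 300 mM -1.77 (standard error 0.274, adjusted p = 0.00136 by limma), and from 50 to 150 mM 0.79 (standard error 0.274, adjusted p = 0.0562 by limma). Because the RNA came from whole ovules, fewer cells of a type and less RNA per cell cannot be told apart, here or in any fall described below.

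Locus 657 and locus 5043 followed. Locus 657 was at 153, 156 and 139 at 50 mM, 114, 148 and 180.0 at 150 mM and 183, 208 and 158 at 300 mM, with the 300 mM libraries all above those at 50 mM but no comparison past the threshold. For locus 5043 the values were 27.2, 40.2 and 31.2 at 50 mM, 107, 92.7 and 110.2 at 150 mM and 147, 144 and 145 at 300 mM, with no overlap between any groups. Its log2 change was 1.65 (standard error 0.145, adjusted p = 0.000169 by limma) for 150 against 50 mM and 2.15 (standard error 0.145, adjusted p = 3.56e-05 by limma) for 300 against 50 mM, while 300 against 150 mM gave 0.50 (standard error 0.145, adjusted p = 0.0832 by limma).

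Among the next 6 in abundance, 2 had their lowest values at 300 mM in every library. Locus 5395 was at 71.1, 68.6 and 83.04 at 50 mM, 109, 94.00 and 99.99 at 150 mM and 66.3, 52.7 and 56.5 at 300 mM. It rose from 50 to 150 mM by a log2 change of 0.44 (standard error 0.126, adjusted p = 0.0261 by limma) and fell from 150 to 300 mM, at -0.79 (standard error 0.126, adjusted p = 0.00741 by limma). The rise lost its call without replicate 1 or 3 at 150 mM or replicate 1 or 2 at 50 mM, with adjusted p of 0.01703 to 0.0928 over all alternatives. Locus 3814 was at 101, 81.9 and 95.1 at 50 mM, 64.3, 106 and 67.1 at 150 mM and 39.99, 36.7 and 43.6 at 300 mM. It fell from 150 to 300 mM, at -0.94 (standard error 0.187, adjusted p = 0.0187 by limma), and from 50 to 300 mM, at -1.19 (standard error 0.187, adjusted p = 0.00144 by limma). The former call was lost without replicate 2 at 300 mM, and the adjusted p was 0.007599 to 0.0744 over all alternatives.

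The other 4 of these 6 showed small differences. Locus 3880 was at 57.7, 61.9 and 55.5 at 50 mM, 57.1, 60.4 and 79.1 at 150 mM and 75.2, 72.3 and 89.7 at 300 mM, and locus 1315 was at 46.2, 47.5 and 44.6 at 50 mM, 43.2, 41.8 and 49.7 at 150 mM and 57.1, 58.5 and 60.8 at 300 mM. Both were higher at 300 mM than at 50 mM in every library, with log2 changes of 0.43 (standard error 0.144, adjusted p = 0.0453 by limma) and 0.35 (standard error 0.0994, adjusted p = 0.0247 by limma). The call of locus 3880 was lost without any of the libraries at 50 or 300 mM, left out in turn, and without replicate 2 at 150 mM, with adjusted p of 0.0126 to 0.126 over all alternatives. For locus 1315 it was lost without replicate 2 at 300 mM or any library at 50 mM, with adjusted p of 0.00573 to 0.0821. Locus 3580 was at 62.6, 88.4 and 66.97 at 50 mM, 72.3, 58.7 and 51.00 at 150 mM and 56.7, 53.9 and 44.2 at 300 mM, lower at 300 than at 50 mM in every library but with no comparison past the threshold. Locus 2775 was at 58.8, 65.1 and 68.5 at 50 mM, 64.5, 56.7 and 47.9 at 150 mM and 62.8, 59.7 and 58.3 at 300 mM, with overlap in every pair of groups and no call.

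**Figure D2:**
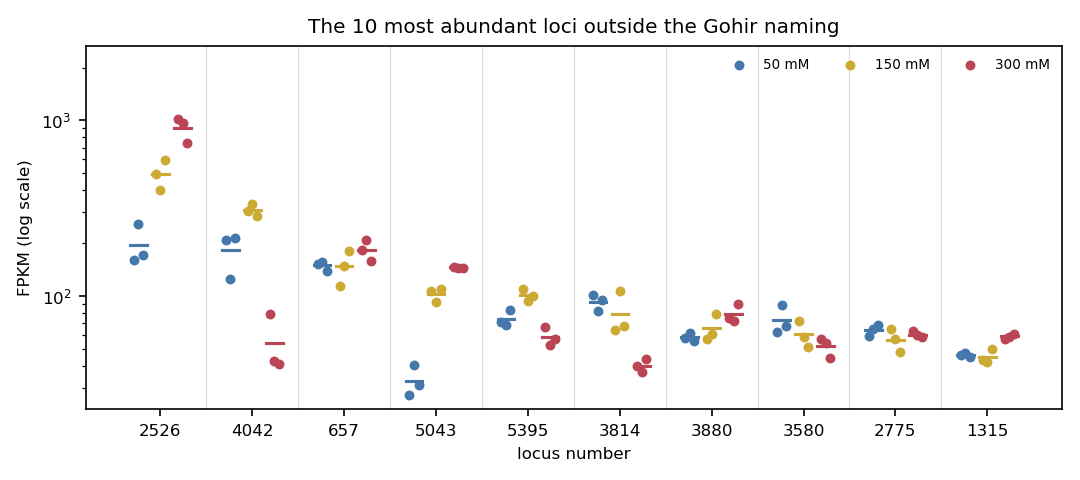
FPKM (log scale) of the 10 most abundant loci in each library, with points for the 3 libraries and a bar for the mean at each glucose concentration. Locus 2526 stands higher at each concentration, and the 300 mM libraries of locus 4042 stand below all others.

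From 50 to 150 mM glucose 623 of the 4027 loci changed (15.5%), where 29.3% of all rows tested were called. There were 247 loci that rose, where 16.0% of all rows rose, and 376 that fell, where 13.3% of all rows fell. Rising loci had a median log2 change of 0.88 and falling loci one of -0.74. In 94 rising and 92 falling loci the size was 2-fold or more, where 12.0% of all rows were called at that size, and in 5 and 8 it was 4-fold or more. Over all the loci the median was -0.07, against 0.02 over all rows. No overlap between the 2 groups was found in 1434 loci (35.6%), where 48.9% of all rows did not overlap, and 895 of these loci were lower at 150 mM. A member detected only in the libraries of 1 group had to differ between groups. The count was therefore also taken over the 2695 loci at an FPKM of at least 1 in every library. Of these 122 rose (4.53%) and 282 fell (10.5%), where 16.1% and 13.4% of the Gohir rows at that minimum in every library did. Calls were made with limma on log2(FPKM + 0.5), with Benjamini-Hochberg adjustment over all 50988 rows. The count was 386 without replicate 3 at 150 mM, 395 without replicate 1 at 50 mM and 373 without replicate 2 at 50 mM.

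The 5 largest rises at 150 mM came from loci of moderate level and from loci near 0 at 50 mM. Locus 576, of 711 bases, had FPKM of 3.01, 3.36 and 5.35 at 50 mM, 22.02, 26.2 and 26.3 at 150 mM and 56.6, 61.6 and 42.3 at 300 mM. Each group lay wholly above the one before it, and the log2 change from 50 to 150 mM was 2.56 (standard error 0.203, adjusted p = 0.000125 by limma). Locus 3535, of 1477 bases, was at 2.57, 2.52 and 4.26 at 50 mM, 20.9, 18.4 and 21.5 at 150 mM and 47.6, 47.6 and 28.7 at 300 mM. Its groups were ordered in the same way, with a log2 change of 2.55 (standard error 0.227, adjusted p = 0.000175 by limma). Locus 1155, of 1325 bases, was at 3.55, 5.33 and 4.18 at 50 mM, 31.2, 19.4 and 22.2 at 150 mM and 47.1, 37.8 and 29.9 at 300 mM. All 3 libraries at 50 mM were below the other 6, with a log2 change of 2.34 (standard error 0.217, adjusted p = 0.000203 by limma), and the 150 and 300 mM groups overlapped.

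Locus 2807 and locus 330 stayed under an FPKM of 1 in the 50 mM libraries and met the minimum only through the other 6. The libraries that let them in are those where they are high, so their p-values are not independent of that choice. Locus 2807, of 863 bases, was at 0.248, 0.677 and 0.0629 at 50 mM, 5.36, 3.54 and 4.29 at 150 mM and 5.504, 3.26 and 3.54 at 300 mM, with 4, 11 and 1 reads behind the 50 mM values. Its log2 change was 2.61 (standard error 0.297, adjusted p = 0.000392 by limma) and ranged from 2.03 to 4.02 over the alternatives. Locus 330, of 1237 bases, was at 0.0864, 0.129 and 0.0878 at 50 mM, 2.83, 2.205 and 4.08 at 150 mM and 6.06, 2.89 and 1.74 at 300 mM, with 2, 3 and 2 reads behind the 50 mM values. The mean at 150 mM was 30.1 times that at 50 mM, and the log2 change was 2.52 (standard error 0.361, adjusted p = 0.00109 by limma), or 1.85 to 4.60 over the alternatives. In both loci the 50 mM libraries lay below the other 6, and the 150 and 300 mM groups overlapped.

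The largest fall at 150 mM belonged to locus 131, of 1085 bases. Its FPKM was 45.9, 60.2 and 37.3 at 50 mM, 2.44, 0.654 and 1.23 at 150 mM and 0.184, 0.471 and 1.34 at 300 mM. The libraries at 50 mM stood far above the other 6, and the mean was 47.8 ± 11.5 with 50 mM, 1.44 ± 0.909 with 150 mM and 0.665 ± 0.601 with 300 mM glucose (SD, n = 3). The log2 change was -4.72 (standard error 0.407, adjusted p = 0.000166 by limma) at 150 mM, a mean 33.2 times lower, and it held its call under every alternative. Behind the low values stood 52, 13 and 26 reads at 150 mM and 4, 10 and 29 at 300 mM.

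The other 4 largest falls also set the 50 mM libraries apart. Of these, locus 5369 and locus 178 met the minimum only through the 50 mM libraries, so that their differences are a description, given with no p. Locus 5369, at 4808 bases a long locus for this set, was at 5.58, 6.76 and 4.01 at 50 mM, 0.307, 0.692 and 0.0428 at 150 mM and 0.146, 0.649 and 0.854 at 300 mM. Its log2 difference at 150 mM was -2.86, or -4.66 to -2.26 over the alternatives. Locus 178, of 1093 bases, was at 4.79, 3.01 and 2.38 at 50 mM, 0, 0.1996 and 0.0941 at 150 mM and 0, 0.0936 and 0.183 at 300 mM, with 208 reads in the 50 mM libraries together, 6 at 150 mM and 6 at 300 mM. The log2 difference was -2.67, or -5.32 to -1.97 over the alternatives.

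Locus 2781, of 546 bases, was at 12.2, 7.39 and 7.86 at 50 mM, 0.372, 1.698 and 0.6596 at 150 mM and 0.641, 2.44 and 3.76 at 300 mM. All libraries at 50 mM were above the other 6, with a log2 change of -2.85 (standard error 0.485, adjusted p = 0.00245 by limma) at 150 mM. Locus 1066, of 1188 bases, was at 22.05, 17.7 and 21.5 at 50 mM, 2.05, 4.96 and 2.08 at 150 mM and 3.32, 6.37 and 6.11 at 300 mM. All libraries at 50 mM were above the other 6, with log2 changes from 50 mM of -2.66 (standard error 0.315, adjusted p = 0.0004799 by limma) at 150 mM and -1.90 (standard error 0.315, adjusted p = 0.00192 by limma) at 300 mM.

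Between 150 and 300 mM glucose 92 loci changed (2.28%), where 6.11% of all rows were called. There were 36 that rose, where 1.31% of all rows rose, and 56 that fell, where 4.8% of all rows fell. Rising loci had a median log2 change of 0.68 and falling loci one of -1.11. The size was 2-fold or more in 3 rising and 36 falling loci, where 3.63% of all rows were called at that size. Over all the loci the median was 0.08, against -0.00455 over all rows. The groups did not overlap in 807 loci (20.04%), where 23.0% of all rows did not, and 552 of these loci were higher at 300 mM. Among the 2695 loci detected in every library 31 rose and 31 fell (1.15% each). Of the Gohir rows detected in every library 1.17% rose and 5.15% fell. At an unadjusted p under 0.05 there were 598 of the 4027 loci, and 10022 of all 50988 rows.

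How the calls divided by direction depended on the scaling. Rises made up 39.1% of the calls with the deposited values, 65.9% (81 of 123) after scaling to recovered reads and 58.2% (64 of 110) with upper-quartile scaling. The count of calls rested on single libraries. It was 137 without replicate 1 at 300 mM, with 67 higher and 70 lower, but 33 and 47 without replicates 2 and 3 at 300 mM. Without replicates 1, 2 and 3 at 150 mM it was 38, 41 and 54. The 2 groups fitted alone gave 49 calls, and a fit with no filter on low values gave 57.

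The largest fall at this step on the log2 scale was that of locus 4042, given above with the most abundant loci. Next came locus 4097, of 3341 bases, at 2.62, 1.35 and 2.06 at 50 mM, 7.36, 7.48 and 7.47 at 150 mM and 2.304, 0.658 and 0.6596 at 300 mM. Its 3 libraries at 150 mM were closely alike and above the other 6, and the log2 change was 1.69 (standard error 0.336, adjusted p = 0.00515 by limma) at the first step and -2.35 (standard error 0.336, adjusted p = 0.00472 by limma) at the second. Replicate 1 at 300 mM was the highest of its group in this locus.

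Locus 171, of 1702 bases, was at 3.05, 0.811 and 3.57 at 50 mM, 6.03, 9.01 and 6.11 at 150 mM and 2.996, 0.511 and 0.618 at 300 mM. The 150 mM libraries were above the other 6, and replicate 1 at 300 mM again stood above the others of its group. The log2 change from 150 to 300 mM was -2.23 (standard error 0.528, adjusted p = 0.0384 by limma), and the call was lost without any library at 150 mM, without replicate 2 or 3 at 300 mM or without replicate 1 at 50 mM, left out in turn (adjusted p 0.006003 to 0.134 over all alternatives). It was also lost with limma-voom on the recovered reads, with no filter on low values and with no mean trend or robust variance.

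The remaining 2 of the 5 largest falls were short loci with few reads. Locus 2341, of 205 bases, was at 3.91, 3.62 and 4.502 at 50 mM, 5.21, 11.7 and 6.78 at 150 mM and 2.19, 2.99 and 0.489 at 300 mM, with 9, 12 and 2 reads at 300 mM. Its groups at 150 and 300 mM did not overlap, and the log2 change was -1.92 (standard error 0.434, adjusted p = 0.03204 by limma). The call was lost without any library at 150 mM or without replicate 1 or 3 at 50 mM, with no filter on low values and with the 2 groups fitted alone, at adjusted p of 0.0256 to 0.104 over the alternatives. Locus 2067, of 284 bases, was at 1.51, 2.24 and 3.06 at 50 mM, 7.52, 5.57 and 5.62 at 150 mM and 1.76, 1.44 and 0.882 at 300 mM, with 42, 29 and 31 reads at 150 mM. The 150 mM libraries were above the other 6, and the log2 changes were 1.31 (standard error 0.257, adjusted p = 0.004896 by limma) and -1.87 (standard error 0.257, adjusted p = 0.003998 by limma) at the 2 steps.

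The rises from 150 to 300 mM were smaller. Locus 3132, of 549 bases, was at 1.17, 2.13 and 0.8901 at 50 mM, 0, 0.199 and 0 at 150 mM and 1.18, 1.49 and 1.55 at 300 mM. Behind these values were 2 reads at 150 mM over all 3 libraries, 43 at 50 mM and 46 at 300 mM. This locus met the minimum only through libraries at 50 and 300 mM, so its p-values are not independent of that choice. The ratio of read rates was 22.2 for 300 over 150 mM, with a 95% interval from 5.81 to 189 by an exact binomial test on the reads, which covers counting error only, and 22.1 (5.75 to 188) for 50 over 150 mM. The log2 change was -1.71 (standard error 0.287, adjusted p = 0.002304 by limma) at the first step and 1.77 (standard error 0.287, adjusted p = 0.00781 by limma) at the second, with -4.08 to -1.14 for the first and 1.18 to 4.16 for the second over the alternatives.

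Locus 4707 was next in size but met the minimum only through the 300 mM libraries, so that its difference is a description, given with no p. It had 4570 bases and was at 0.597, 0.987 and 0.677 at 50 mM, 0.189, 0.3700 and 0.236 at 150 mM and 1.02, 1.33 and 1.67 at 300 mM. Its libraries at 300 mM were above the other 6, with a log2 difference of 1.26 from 150 mM. Locus 576 and locus 3535, given above for the first step, rose again. The log2 change was 1.08 (standard error 0.203, adjusted p = 0.0145 by limma) for locus 576 and 0.97 (standard error 0.227, adjusted p = 0.0368 by limma) for locus 3535. The second rise of locus 576 was lost without replicate 1 at 150 mM or replicate 2 at 300 mM, with adjusted p of 0.00183 to 0.0615 over all alternatives. That of locus 3535 was lost without any library at 150 mM, without replicate 1 or 2 at 300 mM or replicate 1 at 50 mM, with no filter on low values and with no mean trend or robust variance, at adjusted p of 0.0117 to 0.131.

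Locus 4192, of 1948 bases, was at 2.28, 2.72 and 2.23 at 50 mM, 1.46, 1.01 and 1.796 at 150 mM and 2.87, 3.81 and 3.03 at 300 mM. The 150 mM libraries were below the other 6, and the log2 change was 0.97 (standard error 0.197, adjusted p = 0.0202 by limma) at this step and -0.62 (standard error 0.197, adjusted p = 0.0417 by limma) from 50 to 150 mM. The rise was lost without replicate 1 or 2 at 150 mM or replicate 2 or 3 at 300 mM and with the 2 groups fitted alone (adjusted p 0.00885 to 0.0808 over all alternatives). The fall at the first step was lost without any of 6 libraries left out in turn, among them all 3 at 50 mM, with adjusted p of 0.0254 to 0.1303.

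**Figure D3:**
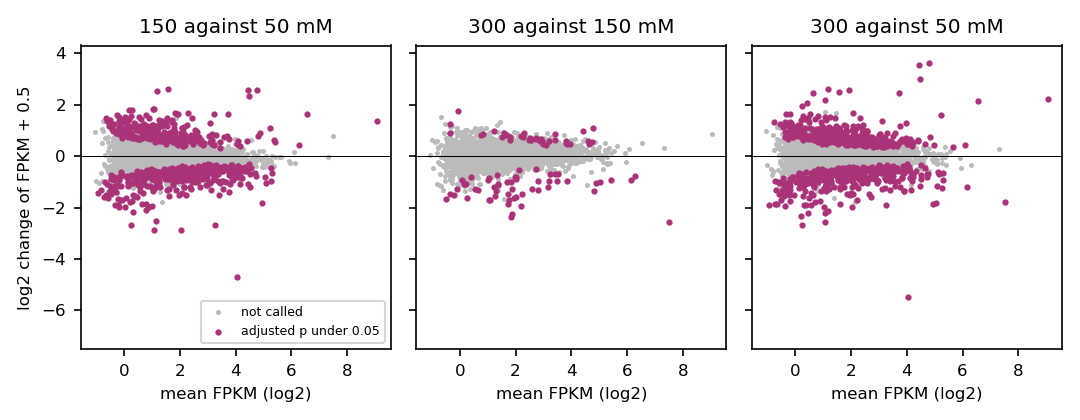
Log2 change of FPKM + 0.5 against mean FPKM (log2 scale) for the 4027 loci in each pair of glucose concentrations, with loci at a limma adjusted p under 0.05 in colour. Loci called number 623, 92 and 717, and the lowest points of the left and right panels are locus 131.

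Across the whole range, 300 against 50 mM, 717 loci changed (17.8%), where 32.3% of all rows were called. There were 368 that rose, where 16.0% of all rows rose, and 349 that fell, where 16.3% of all rows fell. Rising loci had a median log2 change of 0.74 and falling loci one of -0.84. In 82 rising and 111 falling loci the size was 2-fold or more, where 12.4% of all rows were called at that size, and in 12 and 7 it was 4-fold or more. The groups did not overlap in 1392 loci (34.6%), where 46.3% of all rows did not. Of the 2695 loci detected in every library 249 rose (9.24%) and 232 fell (8.61%). The shares among Gohir rows detected in every library were 16.2% and 16.9%. After scaling to recovered reads, which moved the median log2 change of all rows from 0.01 to 0.13, 543 rose and 254 fell (68.1% higher, against 51.3% as deposited). The count of calls was 442, 460 and 439 without replicates 1, 2 and 3 at 50 mM, left out in turn. This comparison shares its libraries with the other 2.

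The largest rises over this range belonged mostly to loci already given for the first step. The log2 change from 50 to 300 mM was 3.64 (standard error 0.203, adjusted p = 2.13e-05 by limma) for locus 576, whose mean was 13.7 times that at 50 mM. For locus 3535 it was 3.53 (standard error 0.227, adjusted p = 3.14e-05 by limma), with a mean 13.2 times higher. Locus 1155 gave 2.99 (standard error 0.217, adjusted p = 4.80e-05 by limma) and locus 330 gave 2.62 (standard error 0.361, adjusted p = 0.000781 by limma), the latter with 1.94 to 4.69 over the alternatives. The p-value of locus 330 carries the limit given above. Locus 3396, of 1149 bases, was at 0.326, 0.878 and 1.32 at 50 mM, 3.98, 2.61 and 3.896 at 150 mM and 7.05, 7.75 and 6.67 at 300 mM, with each group above the one before it. Its log2 change was 2.58 (standard error 0.276, adjusted p = 0.000233 by limma) over the range and 1.63 (standard error 0.276, adjusted p = 0.00243 by limma) at the first step, while the second step, at 0.95 (standard error 0.276, adjusted p = 0.0798 by limma), missed the threshold.

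Among the falls, locus 131 was again the largest, with a log2 change of -5.47 (standard error 0.407, adjusted p = 5.27e-05 by limma) and a mean 71.9 times lower at 300 than at 50 mM. The log2 difference was -2.68 for locus 178 and -2.54 for locus 5369, with ranges of -5.34 to -1.98 and -3.62 to -2.06 over the alternatives. Like them, locus 5578 met the minimum only through the 50 mM libraries, and no p is given for any of them. Locus 5578, of 336 bases, was at 2.55, 2.53 and 3.39 at 50 mM, 0.454, 0.325 and 0.612 at 150 mM and 0, 0 and 0.596 at 300 mM, with 16, 16 and 21 reads at 50 mM, 3, 2 and 4 at 150 mM and 0, 0 and 4 at 300 mM. All 50 mM libraries were above the other 6. Its log2 difference was -2.34, or -4.21 to -1.70 over the alternatives.

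Locus 2459, of 3513 bases, fell at each step and completed the 5 largest falls. It met the minimum only through its libraries at 50 and 150 mM, so its p-values are not independent of that choice. Its FPKM was 4.49, 4.52 and 3.93 at 50 mM, 1.33, 1.38 and 1.36 at 150 mM and 0.4696, 0.539 and 0.585 at 300 mM, with a narrow range in each group and no overlap between groups. The log2 change was -1.37 (standard error 0.1604, adjusted p = 0.000449 by limma) at the first step, -0.85 (standard error 0.1604, adjusted p = 0.0144 by limma) at the second and -2.22 (standard error 0.1604, adjusted p = 4.71e-05 by limma) over both. The call of the second step was lost without replicate 2 at 150 mM and with the 2 groups fitted alone (0.00333 to 0.0898 over all alternatives).

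**Figure D4:**
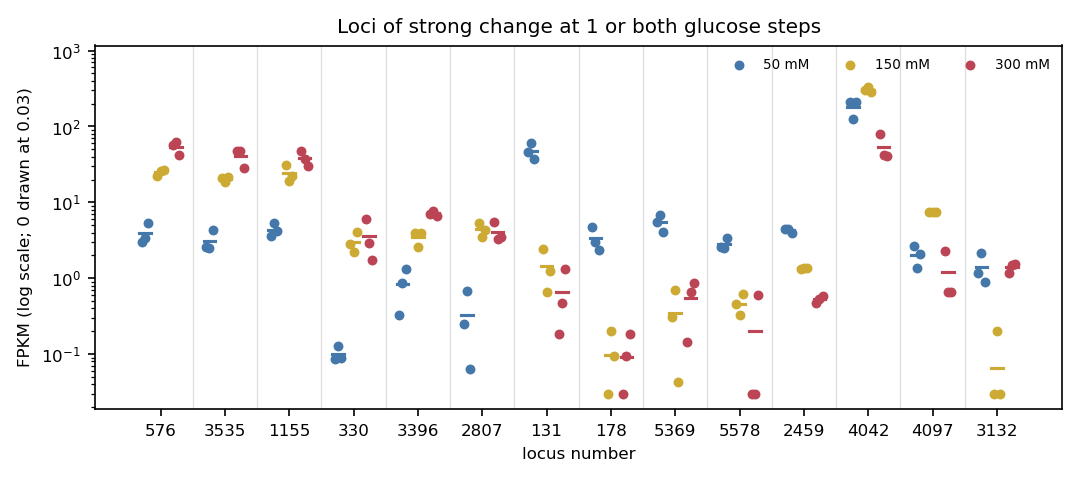
FPKM (log scale, values of 0 drawn at 0.03) in each library for 14 loci of strong change, with a bar for the mean at each glucose concentration. Loci 576, 3535 and 3396 lie higher at each concentration, loci 131, 178, 5369 and 5578 are high at 50 mM only, and locus 4097 is high at 150 mM only.

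Over the 3 concentrations together 772 loci differed by limma's F test (19.2%, where 36.2% of all rows were called). Sorted by their group means, 244 (31.6%, against 20.2% of all rows called) had the lowest mean at 150 mM and 168 (21.8%, against 33.6%) the highest. The means increased from 50 to 300 mM in 171 (22.2%, against 21.9%) and decreased in 189 (24.5%, against 24.4%). After scaling to recovered reads, 317 increased, 288 were lowest at 150 mM, 150 were highest there and 119 decreased. With upper-quartile scaling 285 were lowest at 150 mM, 250 increased, 150 were highest at 150 mM and 147 decreased. Without replicates 1, 2 and 3 at 50 mM the test called 479, 482 and 497 loci. In all 975 of the 4027 loci were called in at least 1 pair of concentrations and 3052 in none. Of all 50988 rows tested 21208 were called in at least 1 pair and 29780 in none.

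Both steps passed the test in 41 loci, where 2.93% of all rows passed both. In 25 of them the level rose and then fell (1.91% of all rows), and in 12 it fell and then rose (0.426% of all rows). Locus 576 and locus 3535 rose at both steps (0.151% of all rows), and locus 2459 and locus 1298 fell at both (0.443% of all rows). The 2 steps share the 150 mM libraries. The counts moved with single libraries. Left out in turn, the libraries gave 8 to 34 loci that rose and fell and 2 to 25 that fell and rose, the highest in both cases without replicate 1 at 300 mM, and 0 to 6 that rose at both steps. The count of loci that fell at both steps was 2 each time, though not always of the same loci. Without replicate 2 at 150 mM locus 2459 lost its second call. With no filter on low values 20 loci passed both steps, of which 11 rose and fell and 6 fell and rose. After scaling to recovered reads 9 loci rose at both steps, and with limma-voom 7 did. With an FPKM of at least 1 required in all 9 libraries 16 loci rose and fell, and 1 fell at both steps.

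In the 25 loci that rose and then fell, the median log2 change was 0.87 at the first and -1.26 at the second step. Locus 2652 and locus 3318 were among them but met the minimum only through the 150 mM libraries. They enter these medians and counts as a description, not as tested rises and falls. Replicate 1 at 300 mM was the highest of its group in 20 of the 25 and the lowest in 1. Its part in these calls was not tested beyond the counts without it. By the smaller of their 2 changes, the leading loci were 4097, 2956 and 2067, of which 4097 and 2067 are given above. Locus 2956, of 953 bases, was at 0.729, 0.446 and 1.37 at 50 mM, 3.57, 4.69 and 4.32 at 150 mM and 2.098, 0.376 and 0.841 at 300 mM. The 150 mM libraries were above the other 6, with log2 changes of 1.85 (standard error 0.386, adjusted p = 0.00653 by limma) and -1.69 (standard error 0.386, adjusted p = 0.0337 by limma). The second call was lost without replicate 2 or 3 at 300 mM, any library at 150 mM or replicate 1 at 50 mM, as well as with the pseudocount of 0.1, no filter on low values and the 2 groups fitted alone (adjusted p 0.00522 to 0.104 over all alternatives).

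In the 12 loci that fell and then rose, the median changes were -0.58 and 0.62. Locus 3132 led them, followed by locus 3248 and locus 2229. Like locus 3132, locus 3248 met the minimum only through libraries at 50 and 300 mM, and its p-values carry the same limit. Locus 3248, of 945 bases, was at 1.02, 0.843 and 1.03 at 50 mM, 0.323, 0.289 and 0.381 at 150 mM and 1.22, 1.19 and 0.742 at 300 mM, from 6, 5 and 7 reads at 150 mM. The 150 mM libraries were below the other 6, with log2 changes of -0.82 (standard error 0.224, adjusted p = 0.0222 by limma) and 0.89 (standard error 0.224, adjusted p = 0.0486 by limma). The first call was lost without replicate 1 or 2 at 150 mM or replicate 1 or 3 at 50 mM (adjusted p 0.00418 to 0.0719 over all alternatives). The second was lost without any library but replicate 3 at 300 mM, and with the pseudocount of 1, limma-voom and the 2 groups fitted alone (adjusted p 0.0126 to 0.1503 over all alternatives).

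Locus 2229, of 1433 bases, was at 5.18, 5.78 and 5.304 at 50 mM, 2.802, 3.997 and 2.87 at 150 mM and 5.34, 5.603 and 6.08 at 300 mM. Again the 150 mM libraries were below the other 6, and the log2 changes were -0.68 (standard error 0.148, adjusted p = 0.00787 by limma) and 0.74 (standard error 0.148, adjusted p = 0.0188 by limma). The second call was lost without replicate 1 or 3 at 150 mM or replicate 2 or 3 at 300 mM and with the 2 groups fitted alone (adjusted p 0.0112 to 0.0727 over all alternatives). Locus 1298, of 1299 bases, the other locus that fell at both steps, was at 53.5, 52.96 and 54.8 at 50 mM, 32.4, 25.4 and 33.5 at 150 mM and 15.5, 14.6 and 14.1 at 300 mM. No groups overlapped, and the log2 changes of -0.82 (standard error 0.116, adjusted p = 0.00104 by limma) and -1.01 (standard error 0.116, adjusted p = 0.00236 by limma) held their calls under every alternative.

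Loci detected at only 1 concentration were few and low. An FPKM of at least 1 in the 3 libraries of 1 concentration and below 1 in the other 6 was found for 40 loci at 50 mM, 8 at 150 mM and 8 at 300 mM. As shares of the loci these counts are 0.993%, 0.199% and 0.199%. The same count among the Gohir rows tested was 242, 71 and 62, or 0.515%, 0.151% and 0.132% of them. These 56 loci met the minimum only through the group where they were high, so the counts are a description with no test. Their mean FPKM at that concentration had a median of 1.56 at 50 mM, 1.39 at 150 mM and 1.31 at 300 mM, while the mean over the other 6 libraries had a median of 0.460, 0.421 and 0.638. In 17 of the 40 loci of 50 mM the lowest library there was at least 2-fold above the highest of the other 6, and in none of the loci of 150 or 300 mM. None was at 0 in all 6 other libraries. With an FPKM of 0.5 in place of 1 the count was 5, all at 50 mM. It could only fall there, since every member already had an FPKM of at least 1 in 3 libraries. With an FPKM of 2 the counts were 45, 1 and 10, and with at least 10 reads as the criterion they were 12, 3 and 1.

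At 50 mM the loci of highest level among these were 5369, 178 and 2590, the first 2 given above. Locus 2590, of 2872 bases, was at 2.57, 3.696 and 3.12 at 50 mM, 0.354, 0.912 and 0.878 at 150 mM and 0.139, 0.5699 and 0.174 at 300 mM. Its 50 mM libraries were above the other 6 by a wide gap. At 150 mM the 3 leading loci were 1185, 2652 and 3318. Locus 1185, of 2591 bases, was at 0.908, 0.369 and 0.796 at 50 mM, 1.94, 2.99 and 1.19 at 150 mM and 0.926, 0.513 and 0.425 at 300 mM, and locus 2652, of 1085 bases, was at 0.739, 0.734 and 0.5004 at 50 mM, 1.83, 1.86 and 1.28 at 150 mM and 0.323, 0.3300 and 0.138 at 300 mM. Locus 3318, of 932 bases, was at 0.229, 0.05695 and 0.932 at 50 mM, 1.36, 2.34 and 1.05 at 150 mM and 0.375, 0.1098 and 0 at 300 mM, from 25, 40 and 19 reads at 150 mM. In all 3 the 150 mM libraries were above the other 6, though in locus 1185 and locus 3318 by a narrow gap.

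At 300 mM the leading loci were 3642, 5304 and 5242. Locus 3642, of 1217 bases, was at 0.834, 0.829 and 0.892 at 50 mM, 0.877, 0.807 and 0.972 at 150 mM and 1.48, 1.09 and 2.39 at 300 mM, with the other 6 libraries close under 1. Locus 5304, of 1682 bases, was at 0.699, 0.505 and 0.581 at 50 mM, 0.876, 0.876 and 0.856 at 150 mM and 1.84, 1.03 and 1.19 at 300 mM. Locus 5242, of 449 bases, was at 0.952, 0.236 and 0.846 at 50 mM, 0.113, 0.486 and 0.458 at 150 mM and 1.002, 1.48 and 1.56 at 300 mM, from 9, 13 and 14 reads at 300 mM. These loci lay near the minimum, and in locus 5242 a library at 300 mM and a library at 50 mM were nearly level.

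The opposite pattern, an FPKM below 1 in the 3 libraries of 1 concentration and at least 1 in the other 6, was found for 34 loci at 50 mM, 4 at 150 mM and 6 at 300 mM. As shares of the loci these counts are 0.844%, 0.0993% and 0.149%. Among the Gohir rows tested the count was 389, 47 and 87, or 0.828%, 0.1001% and 0.185% of them. The shares of loci and Gohir rows were thus nearly equal at 50 and 150 mM. At 300 mM the share of loci was lower, though it rests on 6 loci. No difference between these shares was tested. With detection by at least 10 reads the counts of loci were 15, 4 and 3. At 50 mM locus 2807 and locus 330, given above, had the highest levels in the other libraries. At 150 mM the leading loci were 542 and 4027. Locus 542, of 1488 bases, was at 1.796, 1.32 and 1.68 at 50 mM, 0.854, 0.623 and 0.657 at 150 mM and 1.01, 1.37 and 2.05 at 300 mM. Locus 4027, of 458 bases, was at 1.400, 2.202 and 1.19 at 50 mM, 0.222, 0.715 and 0.562 at 150 mM and 1.09, 1.34 and 1.31 at 300 mM. In locus 542 the lowest library at 300 mM lay little above the highest at 150 mM, while in locus 4027 the gap was wider.

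At 300 mM the leading loci below the minimum were 2459, given above, and 3082. Locus 3082, of 899 bases, was at 2.02, 1.24 and 2.29 at 50 mM, 2.996, 4.37 and 3.72 at 150 mM and 0.945, 0.7396 and 0.613 at 300 mM. Its 150 mM libraries were above all others and its 300 mM libraries below all others. Counts of such loci moved with single libraries, since leaving out a library loosens the condition. The 44 loci below the minimum at 1 concentration became 67 without replicate 1 at 150 mM and 69 without replicate 1 at 300 mM. Without replicate 1 at 300 mM the loci detected only at 150 mM numbered 21 in place of 8. Those below the minimum only at 300 mM then numbered 20 in place of 6.

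**Figure D5:**
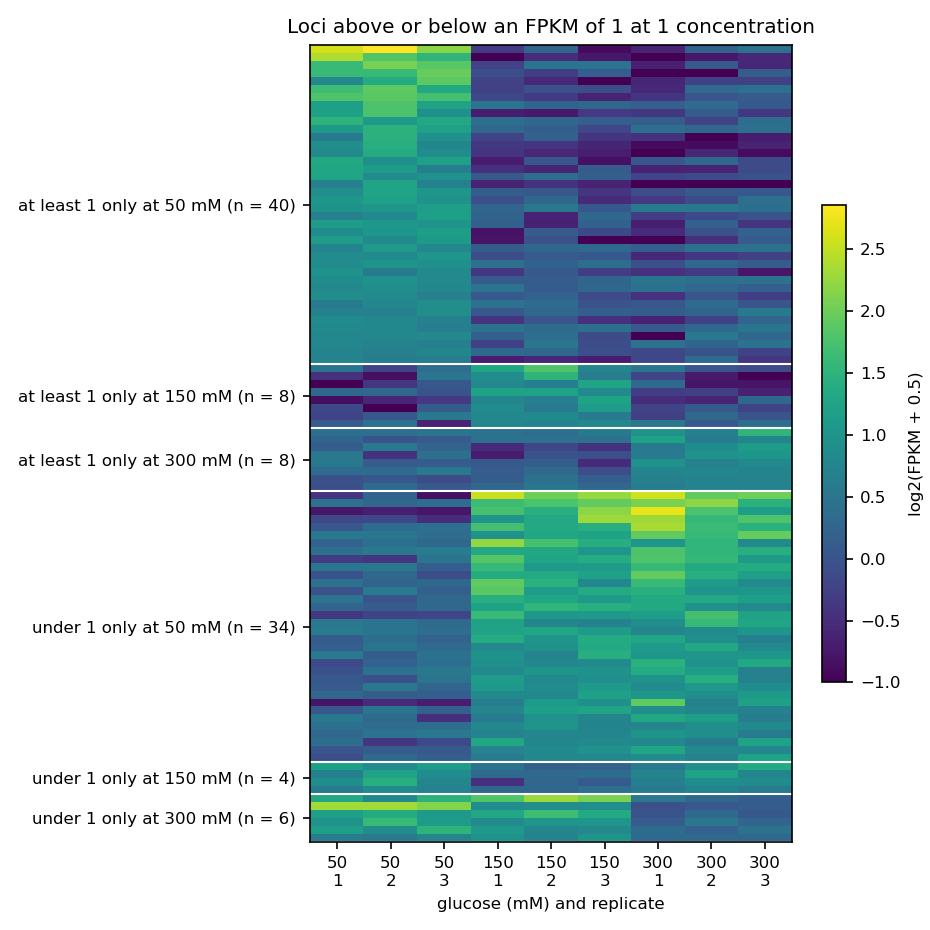
Log2(FPKM + 0.5) in each library (columns, by glucose concentration in mM and replicate) of the 56 loci at an FPKM of at least 1 only at 1 concentration and the 44 loci under 1 only at 1 concentration (rows). Most of the rows belong to 50 mM, with 40 and 34 loci.

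Some loci varied little. Among loci of mean FPKM of at least 10, the 3 of smallest spread over the 9 libraries were 2630, 5387 and 2721. Locus 2630, of 761 bases, was at 32.8, 33.1 and 34.9 at 50 mM, 31.2, 35.3 and 36.03 at 150 mM and 35.1, 36.6 and 34.2 at 300 mM, an SD of 0.0721 on the log2 scale. For locus 5387, of 639 bases, the values were 29.03, 26.00 and 29.4 at 50 mM, 26.01, 26.98 and 29.1 at 150 mM and 30.98, 27.9 and 30.1 at 300 mM, an SD of 0.0891. Locus 2721, of 2258 bases, was at 13.2, 14.8 and 14.3 at 50 mM, 15.6, 13.2 and 12.4 at 150 mM and 13.9, 13.6 and 12.9 at 300 mM, an SD of 0.0984. The groups overlapped in every pair of concentrations for these loci, and none was called, which follows largely from choosing them for small spread.

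Above a mean FPKM of 1 the share of loci called was higher at higher levels. From 50 to 150 mM, 17.2% of the 360 loci with a mean FPKM under 1 were called, 10.8% of the 1237 loci with a mean FPKM of 1 to 2 were called, 13.7% of the 1478 loci at 2 to 5, 22.6% of the 872 loci at 5 to 20 and 33.8% of the 80 loci at 20 or more. The Gohir rows in the same ranges were called in 27.3%, 25.2%, 28.1%, 29.4% and 37.4%. A locus or Gohir row with a mean FPKM under 1 met the minimum in only some of its libraries. That can raise the share called in this lowest class, so no conclusion is drawn from it. The median residual SD of the loci was 0.221 at a mean FPKM of 2 to 5, against 0.265 for the Gohir rows there, and 0.186 against 0.173 at 20 or more. By reads over all libraries, 12.2% of loci against 23.1% of Gohir rows were called from 50 to 150 mM under 300 reads. The shares were 11.9% against 28.2% at 300 to 1000 reads and 19.1% against 30.1% at 1000 to 3000 reads. They were 35.0% of 223 loci against 33.7% at 3000 to 10000 reads, and 58.3% of 24 loci against 44.2% at 10000 or more. Across the whole range, 300 against 50 mM, the shares at 3000 to 10000 reads were 37.2% and 38.8%. Between 150 and 300 mM the loci at a mean FPKM of 20 or more were called in 15.0% (12 of 80) and the Gohir rows in 11.4%. In the 4 lower ranges, in the same order, the loci were called in 1.94%, 0.808%, 2.37% and 3.21%. The Gohir rows there were called in 3.28%, 3.75%, 4.68% and 5.57%, each above the loci. These shares are a description, with no test of the difference.

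Loci that fell were longer at the median than loci that rose. From 50 to 150 mM the loci that fell had a median length of 1444 bases and a median of 1238 reads over all libraries, those that rose 1262 bases and 536 reads, and those not called 1141.5 bases and 601 reads. The loci that fell from 50 to 300 mM had a median of 1557 bases and 1113 reads, and those that rose 1112 bases and 721.5 reads. In 4 length classes of like size, from the shortest to the longest, 11.6%, 14.1%, 19.0% and 17.1% of loci were called from 50 to 150 mM, and the median number of reads was 478.5 in the second class and 1324 in the longest. The part of length and read number in these calls was not tested.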

How the data were processed

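The libraries were RNA sequencing libraries of cotton ovules, grouped by the glucose concentration in their labels. Reads were aligned with HISAT2 and counted with featureCounts 1.5.0-p3, according to the submitters' processing notes. The sources used here give no genome build, annotation or strand setting, nor how loci outside the Gohir naming were defined. The authors deposited FPKM values, 80970 rows per library, with 0 further columns of sample values left unused. Their library-size term, not defined in the sources used here, was 0.984 to 1.10 times the total of the reads recovered below.

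After a factor per library the FPKM values of a row were whole multiples of what 1 read is worth, so whole reads and lengths were recovered, in all 68279 rows above 0 within a tolerance of 0.001 and for lengths below 60000 bases. The recovered totals were 17803705 to 19140279 reads per library. Lengths of rows with few values above 0 are less certain. Intervals from reads cover counting error only. Without strand information, reads of a locus and of an antisense or overlapping gene cannot be told apart.

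Since the values are FPKM, log2(FPKM + 0.5) was fitted with limma 3.58.1 (R 4.3.3, statmod 1.5.0; mean trend, robust variance) on all 50988 rows that reached an FPKM of 1 in 3 or more libraries, using the 9 libraries together and concentration as the only term. Tests were two-sided, Benjamini-Hochberg adjusted over all rows, with a threshold of 0.05; limma's F test covered the 3 concentrations. Alternatives were other pseudocounts, filters, scalings, a replicate block, fits of 2 groups, limma-voom on recovered reads and each library left out.

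Loci named are the 10 of highest mean FPKM; the 5 largest rises and falls per pair of concentrations among calls with groups that do not overlap; the 3 highest detected and the 2 highest undetected only at each concentration; up to 3 loci per pair of directions called at both steps; and the 3 of smallest SD at a mean FPKM of at least 10. The members and these rules were chosen with earlier results of these data known. None of the IDs matched the supplied gene table of 99454 genes (0 matches). No genome was used, so no sequence or position is given.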

Additional observations from a re-analysis of the deposited data

How the results depend on the processing

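Each named locus kept its direction in the comparison it is named for under all alternatives run. Of these values 762 also kept their side of the threshold and 70 lost their call. The count for 300 against 150 mM fell from 92 to 57 with no filter on low values and to 49 with the 2 groups fitted alone. Fits of 2 groups alone gave 721 calls for 150 against 50 mM (623 with all groups) and 590 for 300 against 50 mM (717). With 1 library left out at a time there were 373 to 669 loci for 150 against 50 mM (623 with all), 33 to 137 for 300 against 150 mM, 439 to 714 for 300 against 50 mM (717 with all) and 479 to 779 for the F test (772 with all). Loci detected only at 1 concentration numbered 58 to 70 in this way (56 with all), and those below the minimum only at 1 concentration 54 to 69 (44 with all), since the condition covers fewer libraries. With detection at an FPKM of 0.5 the former count was 5, though under the rule for members it could only fall. At an FPKM of 2 the counts were 56 and 40, and with detection by at least 10 reads they were 16 and 22. Apart from the replicate block, given next, no other alternative moved these counts by more than 1.5 times.

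The replicate numbers were not found to pair the libraries. The correlation of deviations from the group means was -0.275 to 0.102 between libraries of the same number and -0.246 to 0.237 between those of different numbers. With the number as a replicate block the counts were 511, 56 and 584 in the order 150 against 50, 300 against 150 and 300 against 50 mM, and 598 for the F test. It was 22 for both steps (41 without the block), of which 15 rose and fell and 4 fell and rose. The block ended the calls given for 300 against 150 mM of loci 171, 2956, 3248, 3535, 3814 and 4192, for 300 against 50 mM of loci 1315 and 3880, and for 150 against 50 mM of locus 4192. Depth limits the 1062 loci with under 300 reads over all libraries, down to 21 reads, where the median residual SD was 0.374 on the log2 scale.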

Other observations

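The running numbers of the loci carried little information on their response. Over 2959 pairs of loci with consecutive numbers, the correlation of the log2 changes was 0.030 for 150 against 50 mM, 0.018 for 300 against 150 mM and 0.047 for 300 against 50 mM, as a description. In 76 pairs both loci were called for 150 against 50 mM, 47 of them in the same direction, and among loci 50 numbers apart 69 of 2903 pairs were, 35 in the same direction. The sources used here do not say whether the numbers follow the genome.

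Locus 1065 and locus 1066 were among the consecutive pairs that fell together from 50 to 150 mM, chosen here after their values were seen, with log2 changes of -0.50 (limma adjusted p = 0.00615) and -2.66 (limma adjusted p = 0.00048).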
